A study of Cavia porcellus with 9 samples.

Results

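Voltage-gated calcium and sodium channel genes were examined in retinas of guinea pigs kept in green, blue or white light. Genes were taken by symbol (Cacna1, Cacna2d, Cacnb, Cacng and Scn with a subunit number), leaving out Cacna1f, Cacna2d4 and Cacnb2, the set best known from the photoreceptor synapse. The pattern matched 38 genes of the 19962 in the table. Of these, 3 were left out by name and 1, the skeletal muscle sodium channel Scn4a, had too few counts, which left 34 genes among the 15469 tested. The counts hold no row under the symbols Scn1a and Scn3a, so these genes were not analysed here. The 34 are 23 calcium channel and 11 sodium channel subunit genes.

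The animals were male Dunkin-Hartley guinea pigs, tri-coloured and 2 weeks old on arrival. They received green light (3 libraries), blue light (3 libraries) or white light (3 libraries) for 8 weeks on a 12:12 cycle, and the labels give an age of 12 weeks at sampling for every group. The series title names wavelength defocus and refractive development, so each colour was compared with white and green with blue. In every group a pair of the 3 libraries carries the same number in its titles (11 in green, 32 in blue, 6 in white). The green pair also shares the eye mark "od", while the blue and white pairs join "od" with "os". Whether the green pair comes from the same retina is not stated. Nothing says that the libraries are separate animals, so p-values, standard errors and intervals measure only the spread between these libraries. The titles do not explain the ending "-B" of green library 1 and white library 3, nor whether blue library 1 and white library 3, which both carry a 23, are related.

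A voltage-gated calcium channel is built around a pore-forming alpha1 subunit, with an extracellular alpha2delta and an intracellular beta subunit that set how much channel reaches the membrane. L-type pores carry long-lasting currents, P/Q-, N- and R-type pores drive transmitter release at conventional synapses, and T-type pores open near the resting potential. Sodium channel alpha subunits carry action potentials, which in the retina are fired mainly by ganglion cells and some amacrine and bipolar cells, while the small beta subunits tune gating and cell adhesion. Most gamma subunit genes encode transmembrane partners of AMPA-type glutamate receptors rather than calcium channel parts.

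Libraries held between 62155041 and 74979806 counts, and the rod gene list summed to between 69010 and 87930 CPM under green light, 81170 and 89810 CPM in blue and 80240 and 88940 CPM in white. CPM are counts scaled to a common library size, with TMM factors between libraries (trimmed mean of M values). Lens genes, 15 in the table, summed to 101 to 121.7 CPM under green light, 75.9 to 115.9 CPM in blue and 49.4 to 97.9 CPM in white. Cryba1, Crybb1 and Mip, which define lens, were at 0 in at least 1 library, and the part of lens RNA in the channel values was not tested. Levels are not compared between genes, because transcript lengths were not used here. Since whole retinas were sequenced, fewer cells of a type and less RNA per cell cannot be told apart.

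No difference in channel expression between the 3 lights was detected. None of the 34 genes passed an adjusted p of 0.05 in edgeR in any comparison. Of all 15469 genes tested, 0.00646% passed for each colour against white and 0% for green against blue. The absence of calls is thus not particular to the channel genes. Of the 23 channel genes that averaged at least 10 CPM over the 9 libraries, differences from white ran from -0.17 to 0.18 on the log2 scale in green and from -0.25 to 0.18 in blue. Every one of these 23 had a 95% interval inside a 1.5-fold change in either direction for green against white and for blue against white, as did 22 of 23 for green against blue, the exception being Scn2a. Over all 34 genes, which include 11 that averaged under 10 CPM, the interval lay inside 1.5-fold for 24 in green against white, 25 in blue against white and 23 in green against blue. The intervals take the 9 libraries as independent, which the labels do not state.

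**Figure D1:**
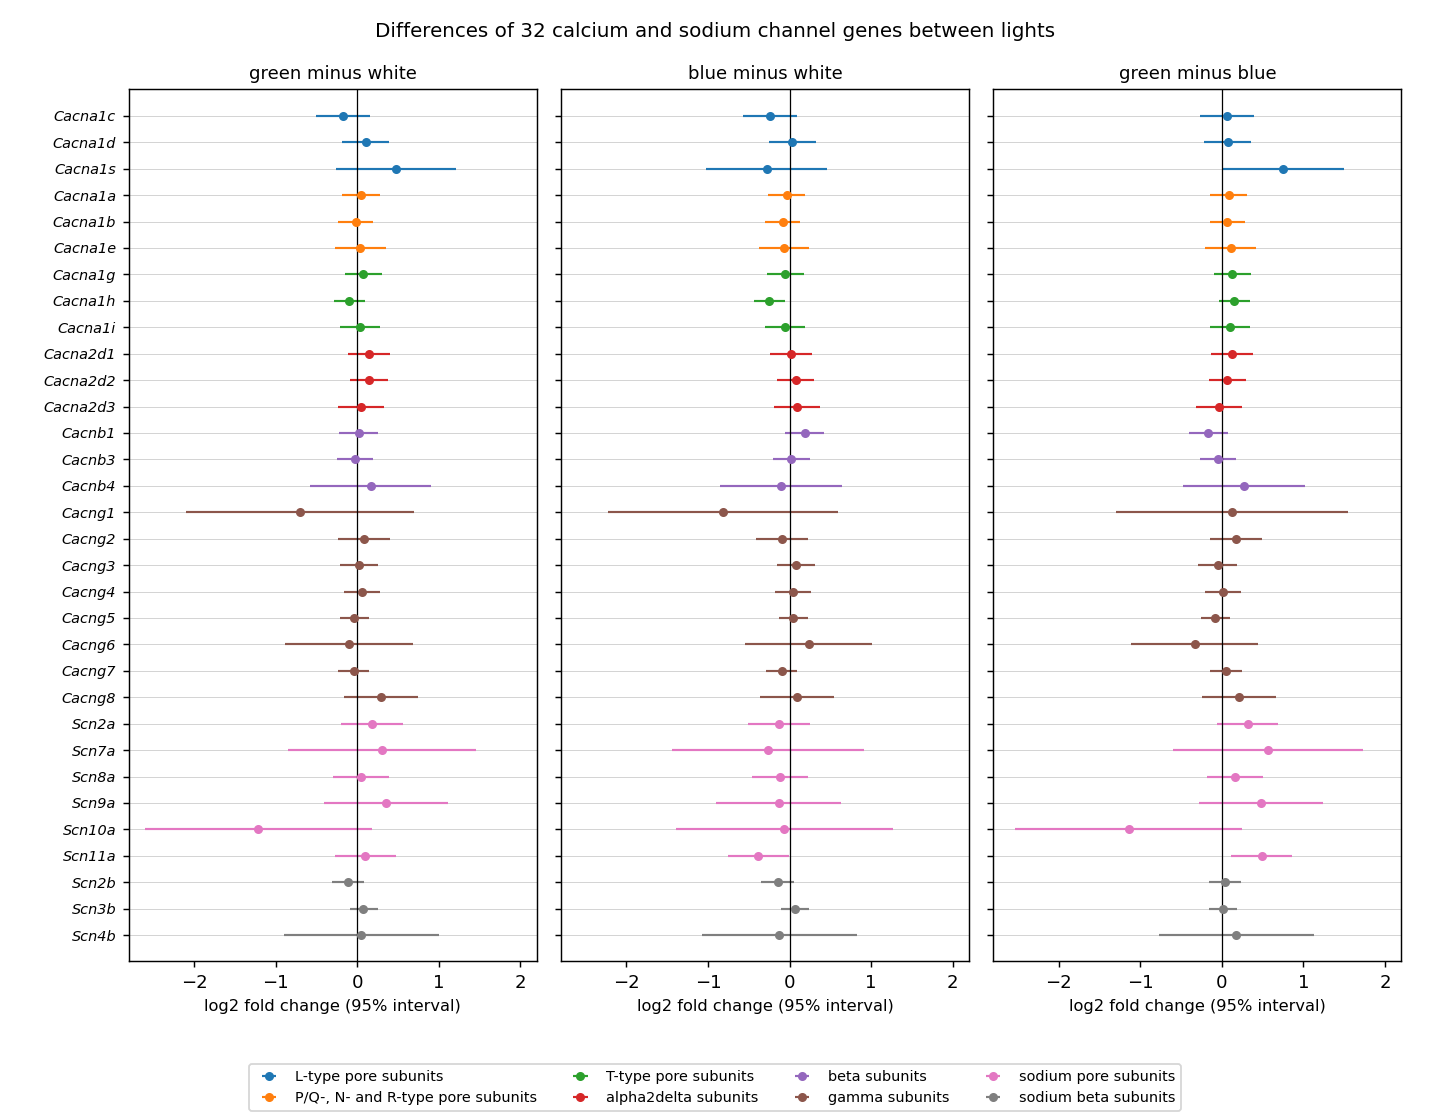
Log2 fold changes of 32 of the 34 channel genes (rows, by subunit class) for each colour minus white and for green minus blue, with 95% intervals from the edgeR fit of 9 libraries. The intervals of the genes at 10 CPM or more are short and most include 0, an exception being Cacna1h in blue minus white (-0.44 to -0.06), and long intervals belong to low genes such as Cacng1, Scn7a and Scn10a.

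Among the L-type pores, Cacna1d, whose channel opens at lower voltages than that of Cacna1c, stood at 24.1, 23.8 and 20.6 CPM under green light, 22.8, 21.6 and 20.9 CPM in blue and 21.9, 17.2 and 24.7 CPM in white. The 3 groups overlapped, and the difference of green from white was 0.10 ± 0.13 on the log2 scale (SE). Cacna1c, the L-type pore of heart and brain, stood at 9.61, 11.4 and 9.77 CPM under green light, 7.87, 11.4 and 10.2 CPM in blue and 11.5, 11.0 and 12.1 CPM in white. Its white libraries were tightly grouped near the upper end, and both coloured groups overlapped them: blue minus white was -0.24 ± 0.15 (95% interval -0.57 to 0.10) and green minus white -0.17 ± 0.15.

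Cacna1s, the L-type pore of skeletal muscle, was read at 223, 173 and 372 counts in green, 208, 139 and 112 counts in blue and 140, 248 and 135 counts in white. That is 2.86, 2.70 and 5.31 CPM under green light, 2.92, 1.89 and 1.64 CPM in blue and 2.06, 3.58 and 2.17 CPM in white. One green library, number 3, lay above all others, and the groups overlapped. Green minus blue was 0.75 ± 0.34 (SE), the widest gap between these lights among the 34 genes in the upward direction, with an unadjusted p of 0.0472 and an edgeR adjusted p of 0.693. This difference was 0.38 without green library 3 and 1.04 without blue library 1, the lowest and highest values over the alternatives run.

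The P/Q-, N- and R-type pores of conventional synapses gave no called difference in any comparison. Cacna1a, the P/Q-type pore, stood at 49.2, 47.9 and 45.6 CPM under green light, 41.6, 46.8 and 46.5 CPM in blue and 44.8, 40.7 and 52.7 CPM in white, so that the white range held both others. The N-type gene Cacna1b averaged 46.5 ± 1.13 CPM under green light, 44.4 ± 0.671 CPM in blue and 47.1 ± 6.15 CPM in white (SD, n = 3 each). Its green libraries all lay above the blue ones, by a log2 difference of 0.06 ± 0.10 (SE). Cacna1e, the R-type pore, lay between 16.1 and 23.8 CPM over all libraries, and both ends of that range were white libraries.

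Among the T-type pores, Cacna1h had the smallest p of the 34 genes in blue against white. It stood at 196, 176 and 170 CPM under green light, 147, 170.5 and 169 CPM in blue and 183, 202 and 193 CPM in white. All 3 blue libraries were below all 3 white ones, and the green libraries lay across the gap. Blue minus white was -0.25 ± 0.09 (SE), a difference of -15.9% (95% interval -26.3% to -4.00%), with an unadjusted p of 0.0149 and an edgeR adjusted p of 0.991. Under the alternatives run this difference stayed between -0.295 and -0.184, and its smallest adjusted p was 0.598. The other T-type genes, Cacna1g and Cacna1i, differed between coloured and white light by no more than 0.08 on the log2 scale in either direction.

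The alpha2delta genes were the one class with all 3 members higher in both green and blue than in white, though none passed the test. This did not hold under every alternative: blue minus white for Cacna2d1 was 0.02, and -0.08 without white library 2 or -0.06 without blue library 1. Green minus white for Cacna2d3 was 0.05, and -0.05 with counts summed per animal label. Cacna2d1, whose product binds gabapentin, stood at 91.0, 78.5 and 74.0 CPM under green light, 82.5, 69.3 and 72.1 CPM in blue and 81.0, 63.2 and 76.4 CPM in white. Cacna2d2, the other gabapentin-binding member, stood at 74.4, 86.4 and 66.2 CPM under green light, 70.5, 73.3 and 72.9 CPM in blue and 68.4, 62.8 and 74.3 CPM in white. For both genes the lowest value was that of white library 2, and the groups overlapped. Green minus white was 0.14 ± 0.12 for Cacna2d1 and 0.14 ± 0.10 for Cacna2d2 (SE). Cacna2d3 ranged from 14.03 to 18.3 CPM over the 9 libraries.

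Of the beta genes, Cacnb1, first known from skeletal muscle, stood at 16.3, 19.7 and 19.2 CPM under green light, 20.0, 21.3 and 20.6 CPM in blue and 17.8, 17.1 and 19.5 CPM in white. The blue libraries lay above every green and every white library. Blue minus white was 0.18 ± 0.11 (SE, unadjusted p = 0.113, edgeR adjusted p = 1) and green minus blue -0.17 ± 0.11. Cacnb3, a neuronal beta subunit, stood at 55.1, 67.1 and 53.4 CPM under green light, 60.5, 63.7 and 57.6 CPM in blue and 56.3, 60.0 and 62.6 CPM in white. Its log2 differences lay between -0.05 and 0.02 in the 3 comparisons. Cacnb4 was low, at 1.24 to 2.81 CPM, and its 2 lowest values were green library 3 and white library 2.

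Among the gamma genes, Cacng7, an AMPA receptor partner, stood at 157, 191 and 168 CPM under green light, 156, 172 and 169 CPM in blue and 167, 185 and 179.9 CPM in white. Its groups overlapped, with green minus white at -0.04 ± 0.09 and blue minus white at -0.10 ± 0.09 (SE). Cacng8, a partner that holds AMPA receptors at synapses, stood at 3.15, 3.82 and 2.81 CPM under green light, 2.30, 3.35 and 2.82 CPM in blue and 2.77, 2.47 and 2.72 CPM in white. All green libraries were above the white ones, the nearest by a small step, and green minus white was 0.30 ± 0.21 (unadjusted p = 0.178, edgeR adjusted p = 0.946). Cacng6, a relative of Cacng1, stayed between 0.650 and 1.40 CPM. The other AMPA receptor partners, Cacng2 (stargazin), Cacng3, Cacng4 and Cacng5, differed from white by -0.09 to 0.09 on the log2 scale in either colour.

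Cacng1, the gamma subunit of the muscle calcium channel, had only 35, 6 and 12 counts in green, 12, 17 and 18 counts in blue and 37, 21 and 20 counts in white. Its blue libraries lay below the white ones, with a log2 difference of -0.82 ± 0.64 (SE) that at this depth has a 95% interval from -2.22 to 0.59. The highest library, white 1, was also the highest for the skeletal muscle actin gene Acta1, at 4.64 CPM against 0.191 to 0.642 CPM in the other 8. Cacna1s had 2.06 CPM in white 1 and was highest in green 3, which had 0.642 CPM of Acta1, the most after white 1. The mean log2 level of 9 tested skeletal muscle genes, relative to all libraries, was 1.573 in white 1 and -0.546 in green 3. Scn4a was read at 0 in every green and white library and at 5, 4 and 4 counts in the blue ones. This is near the floor of 3 counts (0.0400 to 0.0483 CPM). Low counts cluster on multiples of 4, so how many fragments such counts stand for is not known. The skeletal muscle list, with 11 of 13 genes in the table, summed to 12.45 to 14.22 CPM under green light, 10.6 to 11.5 CPM in blue and 12.96 to 24.79 CPM in white, and 5 of its genes (Myh1, Tnnt3, Myot, Des and Chrna1) were at 0 in at least 1 library. The part of muscle RNA in these values was not tested.

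Scn11a was the sodium channel alpha gene with the smallest p in the joint test. Known from pain-sensing neurons, it stood at 8.77, 9.16 and 6.82 CPM under green light, 6.03, 6.31 and 5.33 CPM in blue and 8.78, 7.92 and 6.35 CPM in white. All 3 blue libraries lay below every green and every white library, while green and white overlapped. Green minus blue was 0.49 ± 0.17 (SE), or 40.1% higher in green, with a 95% interval from 8.19% to 81.5%, an unadjusted p of 0.0152 and an edgeR adjusted p of 0.654. Blue minus white was -0.38 ± 0.17 (unadjusted p = 0.0447, edgeR adjusted p = 1). These comparisons share the blue libraries. In the joint test of the 3 lights Scn11a had an adjusted p of 0.816, the smallest of the 34.

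Scn10a, a tetrodotoxin-resistant channel of sensory neurons, had few reads, with 18, 12 and 4 counts in green, 18, 25 and 32 counts in blue and 16, 37 and 21 counts in white. Scaled by library, all green libraries lay below the blue and the white ones, at 0.231, 0.187 and 0.0571 CPM under green light, 0.253, 0.339 and 0.469 CPM in blue and 0.236, 0.534 and 0.338 CPM in white. Green minus white was -1.21 ± 0.63 (SE, unadjusted p = 0.0825, edgeR adjusted p = 0.892), with the closest libraries 0.231 and 0.236 CPM. When counts were divided by 4, a step taken because low counts cluster on multiples of 4, this gene and Cacng1 no longer passed the filter.

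Scn8a, the main channel of the mature axon's initial segment, stood at 57.1, 57.4 and 42.7 CPM under green light, 47.5, 49.1 and 43.9 CPM in blue and 57.1, 39.0 and 56.6 CPM in white. Scn2a, found earlier in development and in unmyelinated axons, stood at 26.3, 20.6 and 16.6 CPM under green light, 17.1, 15.8 and 18.2 CPM in blue and 21.9, 15.5 and 18.5 CPM in white. Both genes were lowest in white library 2, Scn8a next lowest in green library 3, and no pair of lights was separated. Green minus blue for Scn2a was 0.31 ± 0.17 (unadjusted p = 0.0964, edgeR adjusted p = 0.740). Its green minus white value of 0.18 ± 0.17 rested on green library 1, since without that library it was -0.01.

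Scn9a and Scn7a, a nociceptor channel and an atypical sodium-sensing channel, stayed at or below 1.54 CPM in all libraries. The green libraries of Scn9a lay just above the blue ones, at 1.54, 1.19 and 1.14 CPM in green against 0.659, 1.14 and 0.968 CPM in blue, with a log2 difference of 0.48 ± 0.35 (SE).

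Among the sodium beta genes, Scn2b, which is joined to the pore by a disulfide bond, stood at 269.8, 312 and 276 CPM under green light, 257, 300 and 278 CPM in blue and 295, 295 and 335 CPM in white. Its groups overlapped, with green minus white at -0.11 ± 0.09 and blue minus white at -0.15 ± 0.09 (SE). Scn3b had the lowest biological coefficient of variation of the set, 8.29%, and Scn4b averaged 0.993 ± 0.486 CPM under green light, 0.881 ± 0.294 CPM in blue and 0.961 ± 0.282 CPM in white (SD, n = 3 each).

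**Figure D2:**
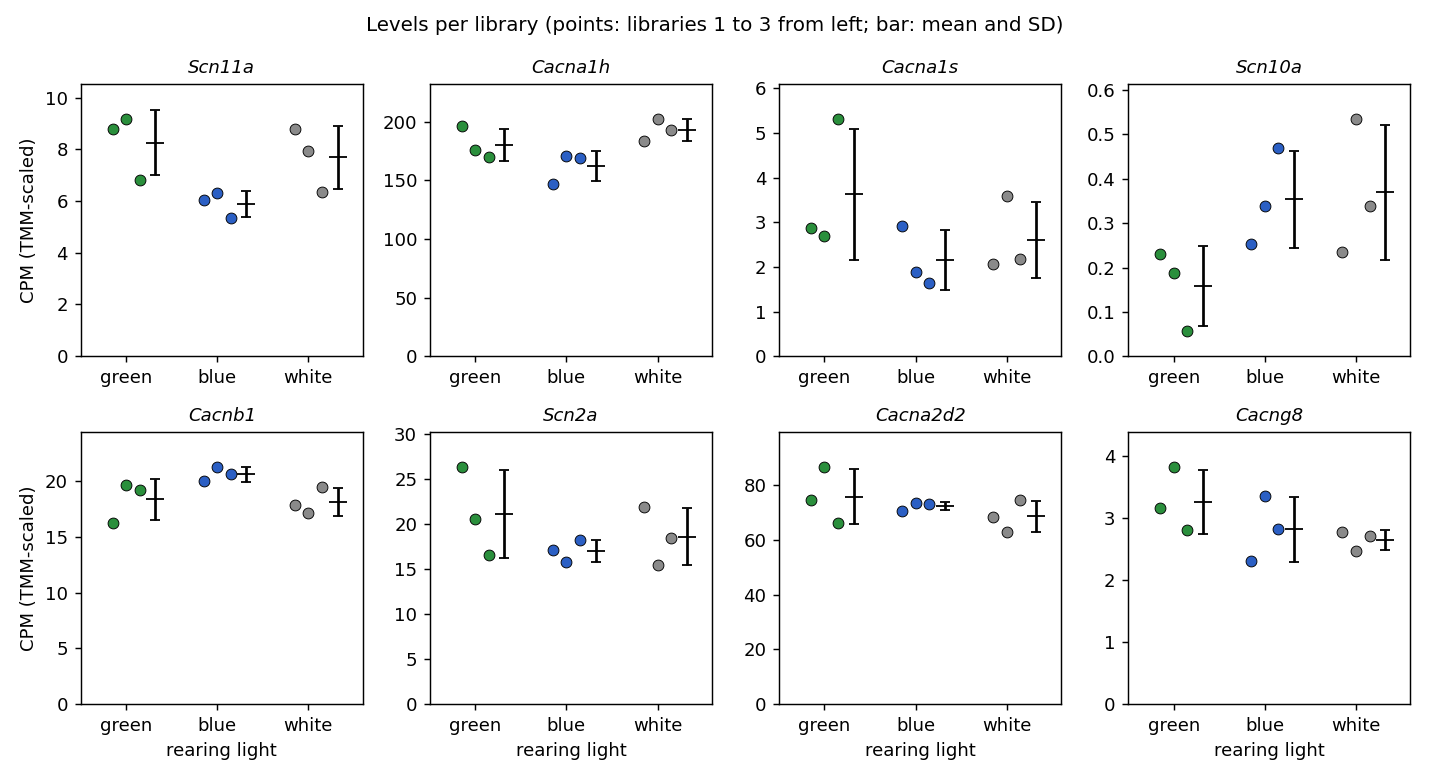
Levels in CPM per library (y axes start at 0) under green, blue and white light for 8 channel genes, with the group mean and SD to the right of each group. Blue libraries of Scn11a lie below the others, at 5.33 to 6.31 CPM, and those of Cacnb1 lie above, at 20.0 to 21.3 CPM, whereas the groups of Cacna1s and Scn2a overlap.

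Green against white gave 23 of 34 channel genes higher and 11 lower in green, with a median log2 difference of 0.05 (all tested genes: 52.4% higher, median 0.01). In edgeR 0 of 34 were called at an adjusted p under 0.05, where 0.00646% of all tested genes were, and 0 of 34 were called by DESeq2 (0.155% of all genes) and by limma voom with the animal label as a random block (0% of all genes). At an unadjusted p under 0.05 stood 0 of 34, against 5.81% of all genes. Groups did not overlap for 3 genes, Cacng8 (green above) and Scn10a (green below) among them, which is 8.82% of the 34, where the share of all genes was 10.1%. The sodium genes had a median of 0.08 but a mean of -0.03, with Scn10a at -1.21. Without white library 2, 14 of the 34 genes were higher in green instead of 23 (median -0.02), and with counts summed per animal label 15 were.

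Blue against white gave 12 of 34 genes higher and 22 lower in blue, with a median of -0.07 (all tested genes: 51.5% higher, median 0.005). Of the 11 sodium channel genes 10 were lower in blue, Scn3b being the other, and of the 23 calcium channel genes 12 were. The blue libraries were uneven: 1, 7 and 4 of the 11 sodium genes stood above their own mean in them, and 7, 4 and 8 in white. In edgeR 0 of 34 were called, against 0.00646% of all genes. DESeq2 called 0 of 34 (0.181% of all genes), as did the same voom fit (0%). At an unadjusted p under 0.05 stood Cacna1h and Scn11a, 5.88% of the set, against 4.45% of all genes. This count was 0 without blue library 1 or white library 2, and 1 without blue library 3 or white library 1. Cacna1h, Cacnb1, Cacng1 and Scn11a did not overlap, which is 11.8% against 9.9% of all genes. Without white library 3 (median 0.02), or without both libraries whose titles end in "-B" (green 1 and white 3), 20 of the 34 were higher in blue.

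Green against blue gave 26 of 34 genes higher and 8 lower in green, with a median of 0.09 (all tested genes: 49.4% higher, median -0.003). The median was 0.045 without green library 2 or 0.05 without blue library 1 (20 and 22 genes higher), and 0.15 without green library 3 (28 higher). In edgeR 0 of 34 were called, as were 0% of all genes. DESeq2 called 0 of 34 (0.31% of all genes), as did the voom fit (0%). Cacna1s and Scn11a reached an unadjusted p under 0.05, 5.88% of the set against 7.18% of all genes. This count was 0 without blue library 3, and 1 without green library 2, blue library 2 or white library 3. For 5 genes the groups did not overlap (Cacna1b, Scn9a and Scn11a with green above, Cacnb1 and Scn10a with green below), 14.7% against 14.2% of all genes. The joint test of the 3 lights called 0 of 34, against 0.00646% of all genes, and gave Scn11a (unadjusted p = 0.038) and Cacna1h (0.0438) under 0.05, 5.88% against 5.94%. Green and blue are each compared with the same white libraries, so these 3 comparisons are not independent.

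**Figure D3:**
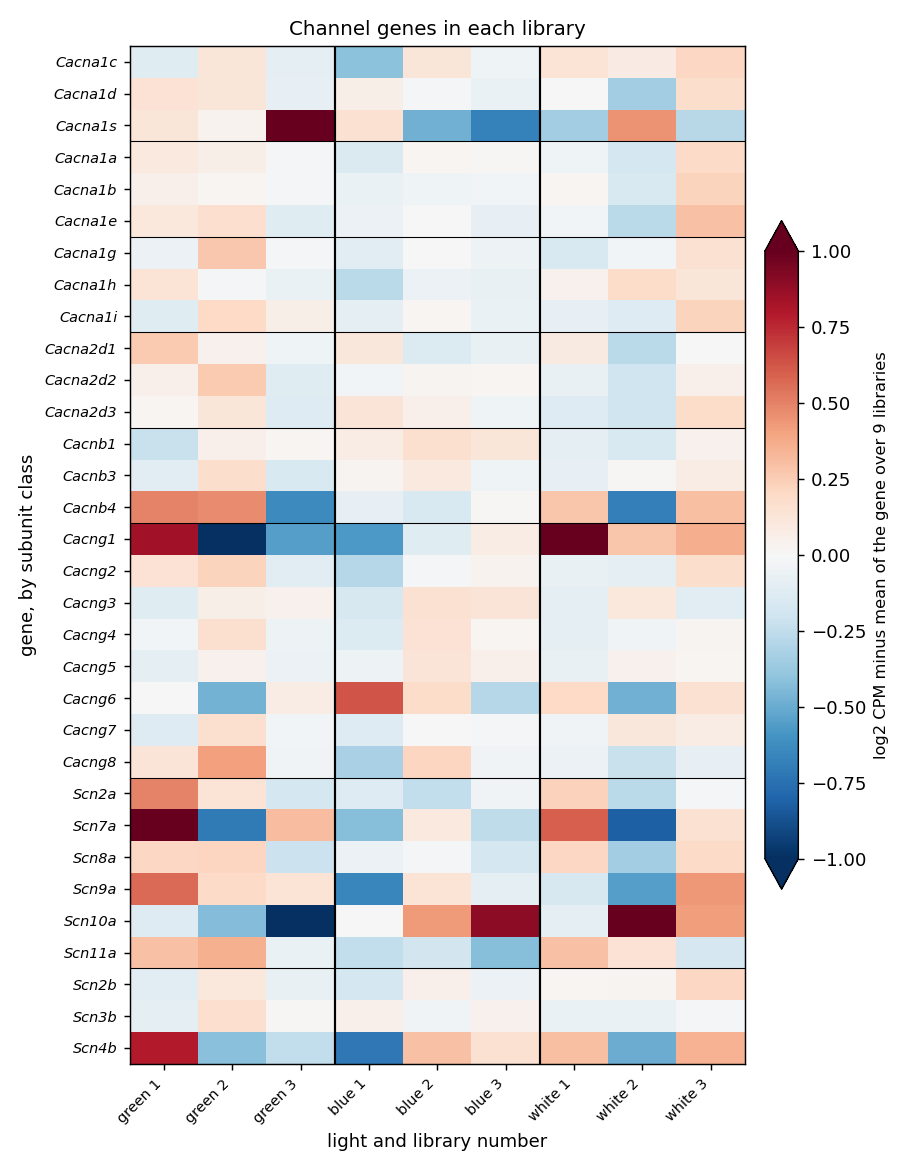
Log2 level of 32 of the 34 channel genes (rows, by subunit class) in the 9 libraries (columns, by light), relative to the gene's mean over all libraries; the colour scale ends at -1 and 1. Columns differ within each light: green 3, blue 1 and white 2 are mostly blue, and green 2 and white 3 mostly red.

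Libraries of a light differed in the level of the set as a whole. Averaged over the 34 genes, the log2 level relative to all libraries was 0.132, 0.032 and -0.096 under green light, -0.132, 0.027 and -0.035 under blue and 0.049, -0.101 and 0.123 in white. Above their own mean stood 21, 27 and 9 of the 34 genes under green light, 8, 20 and 13 under blue and 15, 12 and 28 in white. Each light thus had libraries on both sides, and the groups overlapped. Between libraries that share a title number (3 pairs), the median absolute log2 difference over the set averaged 0.157 (0.106 to 0.214). It averaged 0.188 for the 6 other pairs within a light and 0.182 for the 27 pairs across lights. Over all tested genes the same averages were 0.184, 0.187 and 0.188, so libraries sharing a number were hardly closer there.

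Ganglion cell markers, 15 of 16 in the table and none at 0, are given beside these values. Their mean level was 0.119, 0.104 and -0.036 under green light, -0.102, -0.010 and -0.033 under blue and -0.002, -0.124 and 0.085 in white, and they summed to 2033 to 2213 CPM under green light, 1894 to 2113 CPM in blue and 1954 to 2171 CPM in white. Amacrine markers stayed within -0.079 and 0.078. Ribosomal protein genes stood at -0.145, -0.168 and 0.069 under green light, -0.075, 0.131 and 0.155 under blue and -0.053, 0.112 and -0.026 in white. Pigment epithelium genes were highest in white library 2 (0.936) and lowest in green library 3 (-1.03). The part of any of these in the channel values was not tested.

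**Figure D4:**
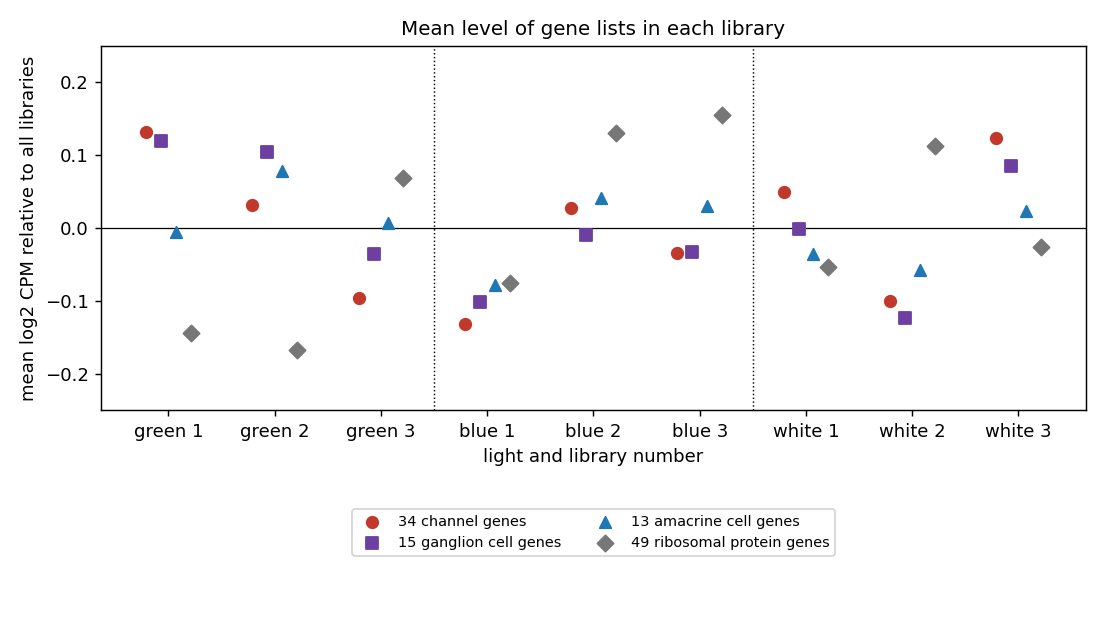
Mean log2 CPM relative to all libraries (y axis) of the 34 channel genes and of 3 other lists in each library (x axis). Channel genes range from -0.132 in blue 1 to 0.132 in green 1, and every light spans values on both sides of 0.

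The 3 genes left out by name are given for comparison. Cacna1f, the photoreceptor pore, stood at 674, 786 and 698 CPM under green light, 588, 589 and 548 CPM in blue and 551, 518 and 605 CPM in white, so that all green libraries lay above the others. Cacna2d4 differed between green and blue by 0.38 ± 0.09 on the log2 scale (SE, edgeR adjusted p = 0.530). Its blue libraries also lay below all white ones, with blue minus white at -0.27 ± 0.09 (unadjusted p = 0.0106, edgeR adjusted p = 0.968). For Cacna1f green minus white was 0.37 ± 0.08 (unadjusted p = 0.00111, edgeR adjusted p = 0.696). Neither gene passed the threshold, and Cacnb2 overlapped in all comparisons.

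Partner genes of these channels were read from 3 lists. In edgeR 0 of their members were called in any comparison. Of all tested genes 0.00646% were called for each colour against white and 0% for green against blue. Among all tested genes 52.4% were higher in green than white, 51.5% in blue than white and 49.4% in green than blue. Of 28 tested partners of calcium channels (calmodulins, active zone scaffolds, calcium-binding regulators), 18 were higher in green than white, 12 higher in blue than white and 19 higher in green than blue. Camk2a, a calcium-dependent kinase, stood at 98.4, 104 and 87.0 CPM under green light, 95.8, 105 and 97.1 CPM in blue and 79.4, 79.7 and 90.3 CPM in white, so blue lay above white. Cabp4, which modulates the photoreceptor channel, stood at 242, 245 and 237 CPM under green light and 227, 189 and 185 CPM in blue, against 253, 222 and 211 CPM in white, with green above blue. Tspoap1, a scaffold that links calcium channels to release sites, differed between green and blue by 0.21 ± 0.08 on the log2 scale (unadjusted p = 0.0179, edgeR adjusted p = 0.654). In this list the groups did not overlap for 10.7% of genes in blue against white, where 9.9% of all genes did. For green against blue the shares were 10.7% and 14.2%.

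Of 22 sodium channel partners, 12 were higher in green than white, 8 higher in blue than white and 14 higher in green than blue. Nfasc, the neurofascin that anchors sodium channels at axon initial segments, stood at 488, 223 and 474 CPM under green light, 427, 461 and 430.2 CPM in blue and 183, 167 and 267 CPM in white. Blue lay above white in full and green did so in 2 of 3 libraries. The differences were 0.94 ± 0.26 for green minus white and 1.096 ± 0.257 for blue minus white (SE, joint test adjusted p = 0.611). Fgf11, an intracellular partner of sodium channels, had green above blue by 0.31 ± 0.10 and Cntn1, a cell adhesion molecule that binds them, by 0.35 ± 0.12. In this list the groups did not overlap for 9.09% of genes in green against white, where 10.1% of all genes did. The shares were 13.6% and 9.9% for blue against white, and 22.7% and 14.2% for green against blue.

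Of 14 genes of AMPA receptors and their partners, which the gamma subunits bind, 9 were higher in green than white, 8 higher in blue than white and 7 higher in green than blue. Gsg1l, another auxiliary subunit, stood at 10.7, 12.6 and 9.04 CPM under green light, 12.9, 13.3 and 12.1 CPM in blue and 8.86, 9.30 and 10.7 CPM in white, with blue above white by 0.41 ± 0.14 (unadjusted p = 0.0155, edgeR adjusted p = 0.991). Gria2 and Gria3, receptor subunits, had green above blue without overlap, by 0.32 ± 0.14 and 0.24 ± 0.13 on the log2 scale (SE). Their edgeR adjusted p were 0.686 and 0.73. In this list the groups did not overlap for 14.3% of genes in green against blue, where 14.2% of all genes did. For blue against white the shares were 7.14% and 9.9%.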

How the data were processed

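Retinal RNA was sequenced as paired-end reads on an Illumina HiSeq 2500, per the labels' protocols. The authors deposited whole-number counts per gene for 9 libraries, per the file headers. For the aligner, counting tool, strand setting, build and annotation, nothing is stated in the labels or headers used here. Low counts were uneven (2014 values of 4 against 472 of 3), so a unit may not be a single fragment.

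All 9 libraries entered 1 fit in edgeR 4.0.16 (R 4.3.3). The filterByExpr step (minimum count 10, minimum total 15) kept 15469 genes. TMM scaling, light as the only term, quasi-likelihood F tests and Benjamini-Hochberg adjustment over all genes tested at 0.05 followed. SE is the log2 fold change divided by the square root of its F. DESeq2 1.42.0 and limma 3.58.1 voom were among the alternatives. The floor of 3 counts covers counting error only. Symbols were used as deposited, and 33 of 34 match RefSeq names of mCavPor4.1.

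Members and lists were chosen with earlier results of these data known. Members given in all libraries were the 6 of smallest p in each comparison and in the joint test, and the member of highest mean CPM in each subunit class. From each partner list at most 3 genes of smallest joint p were named. Cacna1b, Scn9a, Scn3b, Scn4b and Acta1 were given values after these were seen. Values of 2 members are not reported here, though they stay in the counts over the 34.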

Additional observations from a re-analysis of the deposited data

How the results depend on the processing

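Under 21 alternatives (9 leaving out 1 library each and 12 other settings) 0 of the genes tested among the 34 were called in any comparison. The smallest adjusted p was 0.369, for Scn11a in green minus blue in the limma voom fit. Low genes did not pass every filter. Cacng1 and Scn10a were tested under 19 of the 21, and Cacna1s, Cacnb4, Cacng6, Cacng8, Scn4b, Scn7a and Scn9a under 20. Fewer or more genes stood higher under some. Green minus white had 15 with counts summed per animal label, and 14 to 23 leaving out single libraries. Blue minus white had 20 without both libraries with suffix "-B", and 9 to 20 leaving out single libraries. The cause was not tested.

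Of 102 differences (34 genes in 3 comparisons), 53 changed sign under at least 1 alternative, and 51 of these were smaller than their SE, so their direction was not settled. Of the other 2, Scn2a in green minus white changed sign to -0.016 without both "-B" libraries and to -0.008 without green library 1 (range -0.008 to 0.33 over single libraries left out), and Scn7a in green minus blue to -0.317 with the pigment epithelium level as a term. Leaving out single libraries gave 0 to 2 genes at an unadjusted p under 0.05 in blue minus white and in green minus blue, and 0 to 3 in the joint test. No paired analysis was possible because the labels state no pairing of libraries across lights. Title numbers shared within a light served as a random block in limma voom, which called 0 genes of the set. The correlation within shared numbers was estimated at -0.174. With a value below 0, this fit cannot be read as an allowance for libraries from the same animal.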
